A study of Drosophila melanogaster with 36 samples.

Results

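Of 30276 RAMPAGE peaks on Drosophila melanogaster chromosomes 2L, 2R, 3L, 3R, 4 and X, 6773 (22.4%) were not attributed to an annotated gene. They are called unattributed peaks here, and the 23503 peaks that the authors assigned to genes are called genic peaks. An unattributed peak is a peak of the full list that shares no base on its strand with a genic peak, on any chromosome whose name does not end in Het and that is not unplaced sequence. A further 648 peaks that meet the same condition on heterochromatic or unplaced sequence were left out. The full list held 31080 peaks. All 24264 rows of the genic list had the same position, strand and score as a row of the full list, and 605 of them repeated a peak for another gene. No peak therefore sat at the edge of the overlap condition. Same-strand peaks of the full list were at least 136 bp apart, and the closest unattributed peak to a same-strand genic peak lay 140 bp away, with 35 within 200 bp.

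RAMPAGE sequences the 5′ ends of capped RNA and so marks transcription start sites. The libraries came from pools of whole animals of the y; cn bw sp strain, without treatment, with 1 library per stage: 24 embryo windows of 1 h from 0 to 24 h, the larval stages L1, L2 and L3 (L3 split by a dark, light or clear gut), pupae aged 1 to 5 days past the white prepupal stage, and adults 5 days old as males and as females. Embryos, larvae with pupae, and adults were prepared as separate multiplexed libraries, and adult RNA was extracted and sequenced in another way than the rest. Recovered reads in genic peaks ranged from 698702 to 16690598 per library. The peak lists combine all 36 libraries into 1 score per peak, so an unattributed peak has no value by stage, no replicate and no test between stages. In the 5 pupal columns of the gene table nearly all minus-strand genes were listed at 0. Of the unattributed peaks 50.3%, and of the genic peaks 49.2%, lay on the plus strand. Each peak counts once over all 36 libraries, so these shares cannot show whether minus-strand scores lack pupal reads. Positions are on dm3, counted from 1.

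Capped RNA that starts away from known genes can come from genes not yet annotated, from primary transcripts of microRNAs, from enhancers, from transposable elements, or from the strand opposite a promoter. In Drosophila most promoters are thought to drive transcription mainly in 1 direction, while neighbouring genes often start head to head, so that a pair of start sites points away from each other across a short gap. Antisense start sites inside genes are also known, and their RNAs are often short-lived.

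Unattributed peaks were weak and narrow. Their median score was 31, against 289 for genic peaks (95% order-statistic intervals 30 to 31 and 277 to 304). Scores from the 25th to the 75th percentile spanned 18 to 72 in unattributed peaks and 53 to 1718 in genic peaks. The score is the authors' own whole number per peak of a definition not given in the sources used here. Across 7591 genes with a single peak, which are not independent replicates, it had a Spearman rho of 0.964 with the reads recovered from the gene table, and its median was 52.7% of those reads, so it ranks peaks much as reads do. The lowest score, 13, was held by 398 unattributed peaks (5.88%) and 347 genic peaks (1.48%). A score of at least 100 was reached by 18.6% of unattributed peaks and 65.6% of genic peaks, and one of at least 1000 by 122 unattributed peaks (1.80%) and 7709 genic peaks (32.8%). Together the unattributed peaks held 1.52% of the summed score, and the 10 highest held 14.7% of that share.

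The median width was 15 bp in unattributed peaks, against 53 bp in genic peaks (95% intervals 14 to 15 and 51 to 55 bp). A width of 1 bp was found in 5.14% of unattributed peaks and 1.20% of genic peaks, and a width of at least 100 bp in 6.81% and 27.7%. At matched score the difference in width was small. At scores from 100 to below 500 the median width was 59 bp in unattributed peaks (95% interval 55 to 63 bp) and 57 bp in genic peaks (55 to 58 bp). From 500 to below 1000 it was 75.5 bp in unattributed peaks and 75 bp in genic peaks. At 13 to 19, as from 20 to below 50, the unattributed peaks were the narrower ones, at 13 to 19 with a median of 9 bp against 12 bp in genic peaks (95% intervals 8 to 9 and 12 to 12 bp).

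**Figure D1:**
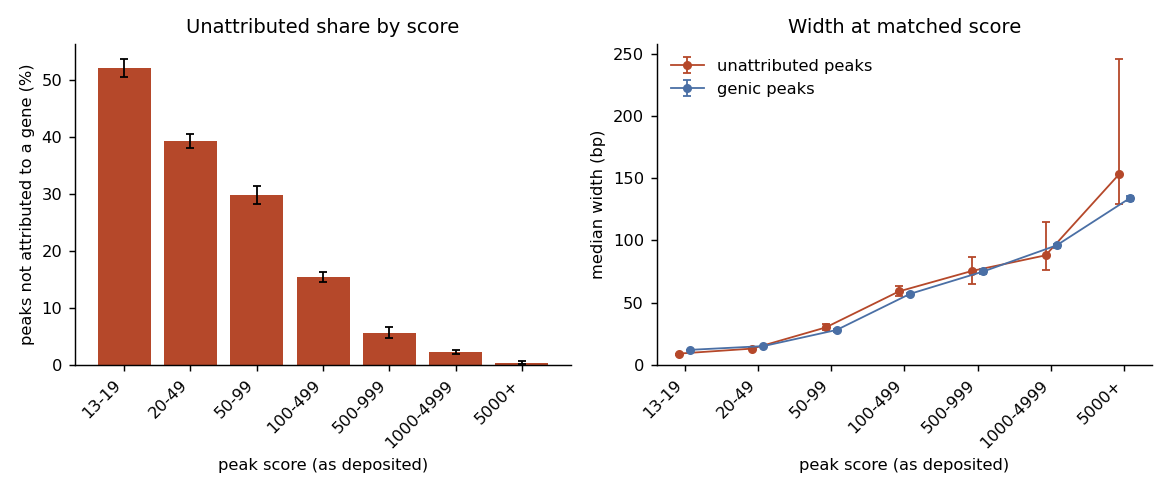
Left, the share of all peaks on these chromosomes that were not attributed to a gene (%), by score as deposited, with 95% exact binomial intervals; right, the median width (bp) of unattributed and genic peaks by score, with 95% order-statistic intervals. The share is 52.1% at scores of 13 to 19 and 0.332% at 5000 or more, and the widths lie close together at most scores.

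The unattributed share of peaks fell as the score rose, from 52.1% at scores of 13 to 19 through 29.8% from 50 to below 100 and 5.64% from 500 to below 1000 to 0.332% at 5000 or more, where 9 of 2713 peaks were unattributed. Chromosomes differed little. The share was 26.9% on chromosome 4 (95% exact binomial interval 22.8% to 31.2%), 24.1% on 3L (23.1% to 25.3%) and between 21.7% and 22.1% on the other 4. These intervals, like all others given for shares, cover counting error only.

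For most unattributed peaks (70.1%) the nearest genic peak lay on the other strand. Their median distance to the nearest genic peak of either strand, from edge to edge, was 1122 bp (95% interval 1063 to 1204 bp). The median distance was 1683 bp to an opposite-strand genic peak and 5597 bp to a same-strand one. The nearest genic peak lay on the opposite strand for 94.2% of the 2246 unattributed peaks within 500 bp of one, for 62.5% of those between 500 bp and 5 kb away and for 49.8% of those farther off. At short range this share is in part set by the selection, which leaves out overlaps on the same strand. No unattributed peak lay closer than 140 bp to a same-strand genic peak, while 207 overlapped an opposite-strand one. The rule by which the authors attributed peaks to genes, not given in the sources used here, decides which same-strand peaks near a gene could be left over, and its part in the sparse same-strand neighbourhood was not tested.

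Around the highest-scoring start of each gene (12398 distinct starts), the profile of unattributed peaks differed by strand and side. On the opposite strand there were 74.9 peaks per kb per 1000 gene starts in the 500 bp upstream, with the highest 100 bp bin directly upstream of the start (154 peaks, 12.4 per 1000 starts). Density was 54.2 per kb per 1000 starts over the first 500 bp downstream, 94.5 from 500 to 1000 bp and 55.7 from 1000 to 2000 bp. On the same strand it was 6.78 in the 500 bp upstream and 1.13 in the 500 bp downstream, and 41.8 and 45.9 from 500 to 1000 bp and from 1000 to 2000 bp upstream. Other genic peaks had another shape: 582 per kb per 1000 starts on the opposite strand in the 500 bp upstream, where head-to-head genes start, and 29.8 from 500 to 1000 bp downstream, where the unattributed peaks were denser.

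**Figure D2:**
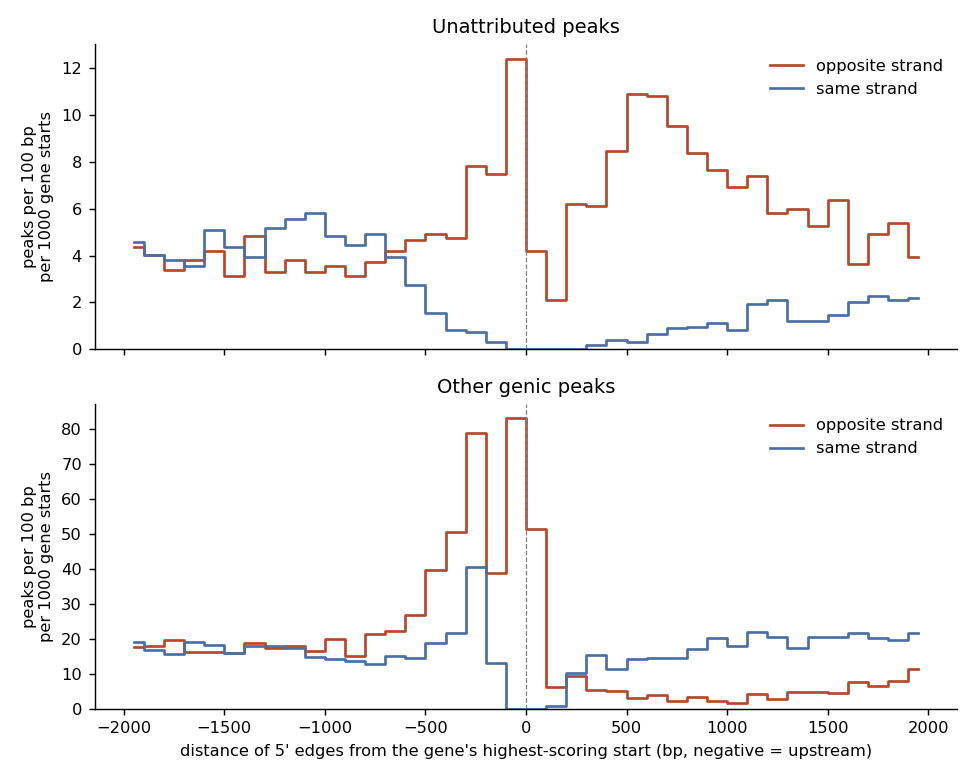
Number of unattributed peaks (top) and other genic peaks (bottom) per 100 bp and per 1000 gene starts, by distance of 5′ edges from the highest-scoring start of each gene (bp, negative is upstream), on the opposite and on the same strand. Unattributed peaks have opposite-strand maxima directly upstream of the start and 500 to 700 bp downstream, and nearly none on the same strand from 500 bp upstream to 500 bp downstream; the scales of the panels differ.

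Sorted by position within 500 bp of a genic peak, 207 unattributed peaks (3.06%; 95% exact binomial interval 2.66% to 3.49%) overlapped an opposite-strand genic peak by at least 1 bp. A further 986 (14.6%; 13.7% to 15.4%) were divergent, with the nearest opposite-strand genic peak behind them, so that the pair pointed away from each other. Another 1123 (16.6%; 15.7% to 17.5%) faced a genic peak, lying antisense within the first 500 bp that it transcribes. The classes are not mirror images, since a divergent peak must have its nearest opposite-strand genic peak behind it and a facing one need not have it ahead. In all, 301 peaks had opposite-strand genic peaks within 500 bp on both sides, of which 189 were in both classes and the others were facing only. Without the condition on the nearest peak, an alternative added after the data were seen, 1098 (16.2%; 15.3% to 17.1%) had an opposite-strand genic peak within 500 bp behind them, close to the share of facing peaks. On the same strand 129 (1.90%) lay upstream and 61 (0.901%) downstream of a genic peak. Genic peaks, placed in the same way against other genic peaks, were divergent in 16.9% of cases and facing in 3.11%. Without the condition on the nearest peak, 17.3% of them had an opposite-strand genic peak within 500 bp behind them. A same-strand genic peak lay within 500 bp downstream of 14.5% of genic peaks. That share counts other start-site peaks of the same gene, so it is not like for like with the same-strand shares of unattributed peaks. Among opposite-strand positions, the facing share differed most between both kinds of peak (95% interval 2.90% to 3.35% for genic peaks). The authors' attribution of peaks to genes defines both kinds, so it also bears on which antisense starts are left unattributed. Its part in this contrast was not tested.

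**Figure D3:**
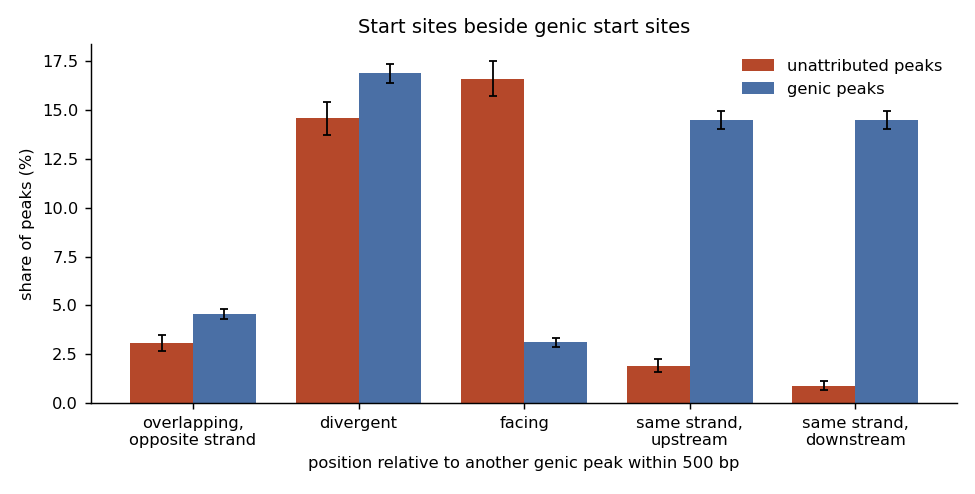
Share (%) of unattributed peaks and of genic peaks that lie within 500 bp of another genic peak, by relative position, with 95% exact binomial intervals. Facing peaks make up 16.6% of unattributed and 3.11% of genic peaks, and same-strand neighbours at most 1.90% of unattributed and 14.5% of genic peaks. For genic peaks the same-strand neighbours include other start-site peaks of the same gene.

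The unattributed peaks beside genic starts were mostly much weaker than their partners, as unattributed peaks were in general. Overlapping peaks had a median score of 6.02% of that of the genic peak on the other strand, divergent peaks 10.7% and facing peaks 7.15%. The median was 10.7% for same-strand peaks upstream of a genic peak, 45.2% (95% interval 21.9% to 68.4%) for the 61 downstream of one, whose partners were weak at a median of 92, and 17.5% of the nearest genic peak for those over 5 kb away. The score was above the partner's in 15.9% of overlapping, 16.7% of divergent and 15.0% of facing peaks. The opposite-strand partners themselves were strong: their median score was 907 for overlapping, 388 for divergent and 546 for facing peaks, against 289 over all genic peaks. Across pairs the scores were nearly unrelated (Spearman rho -0.107, 0.0920 and 0.0267, a description over pairs that share loci). Among genic peaks with a score of 5768 or more, 9.35% were faced by an unattributed peak and 4.89% had a divergent one, against 3.45% and 3.42% among those below 53. The part of the partner's signal or width in calling such peaks was not tested.

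The 10 unattributed peaks of highest score were not a uniform group. The highest, with a score of 31642, lay on the X chromosome (18757892 to 18758089, plus strand), 40 bp from the minus-strand start of a gene known only by a CG number, whose own score was 667. Next came a minus-strand peak on 3L (14970663 to 14970908, score 22252), more than 1 kb from any genic peak, between Ocho, a Notch pathway modulator of the Bearded family, and a gene with only a CG number.

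A plus-strand peak on 3L (628334 to 628508, score 12340) lay 11683 bp from the nearest genic peak. On 2L a minus-strand peak (17752505 to 17752633, score 10196) lay between start-site peaks of CadN, which encodes the adhesion protein N-cadherin, on the strand of that gene. Its score was above the 1152 of the nearest CadN peak, 1653 bp away. On 3R a minus-strand peak (20460751 to 20460903, score 6622) lay between atl, atlastin, and puf, a deubiquitinase gene whose nearest peak scored 16. A plus-strand peak on 3R (20811300 to 20811339, score 4830) lay 37627 bp from the start of beta4GalT7, a galactosyltransferase gene. The other 4 were a plus-strand peak on 3L that overlapped a genic peak by 1 bp (17378515 to 17378767, score 10876), a divergent peak on 2L (22736195 to 22736340, score 6225), a peak on 3L 1434 bp downstream of a same-strand genic peak (11686222 to 11686254, score 12840) and one on 2R (12716581 to 12716616, score 5577).

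Among overlapping peaks, after the one on 3L, the highest overlapped a weak start-site peak of tkv, the type I receptor for the BMP ligand Dpp (2L, 5242677 to 5242971, plus strand). It scored 4243, and the tkv peak that it overlapped by 26 bp scored 34. tkv itself was at 459 RPM in its highest embryo library, 8 to 9 h, and at 102 RPM in its lowest. The third overlapped a start of Rpt3, an ATPase subunit of the proteasome, by 8 bp (X, 11018591 to 11018795, minus strand, score 3971, against 127 for the Rpt3 peak).

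The third divergent peak by score was paired with Kaz (3R, 20655939 to 20656079, plus strand). It scored 4812 and lay 237 bp from the Kaz start, which scored 1086. Kaz was highest at 11 to 12 h of embryogenesis, at 320 RPM. In these leading cases the unattributed start was the stronger member of the pair, unlike in most pairs. They were picked for their high scores, so the contrast with most pairs follows at least in part from that choice.

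The genes faced by the highest facing peaks had their signal at different embryo hours. The first, on 2R (13053110 to 13053461, plus strand), scored 2837 and faced, at 412 bp, a CG-numbered gene whose peak scored 36151 and which was highest at 21 to 22 h, at 14030 RPM. The second, on 3R (9797368 to 9797486, plus strand), scored 2336 and faced, at 22 bp, a peak of score 356 whose gene, without a symbol here, was highest at 1 to 2 h, at 799 RPM. The third was antisense to Act57B, a muscle actin gene (2R, 16832603 to 16832705, minus strand, 196 bp away). It scored 2262, against 2436 for the Act57B peak that it faced. Act57B was at 9522 RPM in its highest embryo library, 15 to 16 h, and at 3.50 RPM in its lowest. No stage can be given for the antisense start.

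Same-strand neighbours were few. The highest downstream one lay 235 bp past a start of Trf4-1, a noncanonical poly(A) polymerase gene (X, 8448712 to 8448804, plus strand), and scored 2454 against 61 for that Trf4-1 peak. It was followed by peaks downstream of vig2 (3R, 20928211 to 20928242, score 502) and of Gbeta13F, a G protein beta subunit gene (X, 15756952 to 15757107, score 351). The highest upstream one was the peak that overlaps Rpt3, and the next lay 408 bp upstream of a CG-numbered gene (3L, 15044326 to 15044527, minus strand, score 1807).

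"Outside annotated genes" describes the attribution and not always the position. Of the unattributed peaks 818 (12.1%) lay between start-site peaks of a gene on their own strand, and 2367 (34.9%) between those of a gene on the opposite strand, which puts 3042 (44.9%) within the span of some gene's starts. The same-strand hosts with most such peaks were tara, a trithorax group gene, with 11 and hth, a homeobox gene, with 9. Median scores were 26 for peaks within a same-strand gene and 30 for those within an opposite-strand gene. Whether the remaining peaks lie inside genes past the last start site was not tested, since no annotation of dm3 was used here.

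A distance of more than 5 kb from any genic peak was found for 1557 unattributed peaks (23.0%; 95% exact binomial interval 22.0% to 24.0%). Their median score was 32, against 31 over all unattributed peaks, their median width was 15 bp, and 36 of the 122 peaks of at least 1000 were among them. Besides the peaks on 3L and near beta4GalT7 already described, the strongest was a minus-strand peak near the end of 2L (23009531 to 23009632, score 4464), 48345 bp from Spf45, which encodes a splicing factor. The farthest lay 146796 bp from any genic peak, on the X chromosome near DIP1 (21649393 to 21649404, score 15). A pair near jing on 2R, at 102036 and 101791 bp, scored 71 and 56. Of these far peaks 4.05% (3.12% to 5.15%) were divergent from another unattributed peak within 500 bp and 2.44% (1.73% to 3.33%) faced one, against 2.89% and 2.17% of all unattributed peaks.

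The widest unattributed peak, 872 bp, lay on 3L (4897343 to 4898214, minus strand, score 2424) and overlapped a weak genic peak of score 51 by 15 bp. The next, 490 bp wide, lay 813 bp past Hrb27C, an RNA-binding protein gene (2L, 6926201 to 6926690, plus strand, score 2858), and the third, 479 bp wide, lay 1177 bp before the kinase gene Lk6 (3R, 7591418 to 7591896, minus strand, score 1872).

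Most unattributed peaks stood alone. Joined where neighbours on either strand lay within 1 kb, they formed 5668 loci, of which 4847 held a single peak, 624 held 2 and 21 held 5 or more. Of the 821 loci with at least 2 peaks, 274 held both strands. The richest locus was antisense to SERCA, the calcium pump of the sarcoplasmic reticulum (2R, 19817093 to 19820249). It held 10 peaks, all on the plus strand against the minus-strand SERCA start, with scores of 34 to 810, and 9 of them lay within the span of starts of an opposite-strand gene. The next had 8 plus-strand peaks with scores of 28 to 439 (2R, 5929026 to 5931591). The genic peak nearest to this locus, at 0 bp, was of a minus-strand gene with only a CG number. COX7C, a subunit gene of cytochrome c oxidase, flanked the locus on the plus strand. All 8 peaks lay within the span of starts of an opposite-strand gene. The third had 7 minus-strand peaks with scores of 22 to 206 between Aldh-III and wech (2R, 3366947 to 3369310), none of them within a gene's span of starts.

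Many strong unattributed peaks lay between flanking genes where another annotation places a further gene that the authors' gene table lacks. Such a gene can be long known, and whether a peak lies at it was not tested. Order along the chromosome, and not position, was used for this: for 3709 unattributed peaks both flanking genic peaks belonged to different genes that the Ensembl annotation of assembly BDGP6 names and places in the same order, and the annotated features that start between those genes, and that the authors' gene table does not hold, were counted by strand. Among these peaks, 34.3% had a long noncoding or antisense RNA gene on their own strand in that interval, and 22.9% had one on the opposite strand. For protein-coding genes the shares were 13.6% on the same strand and 9.30% on the opposite strand, for miRNA genes 3.34% and 2.37%, and for annotated transposable elements 25.3% and 22.5%. Peaks of 1 interval share its features, so they are not independent.

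For protein-coding and miRNA genes the strand difference was larger at high scores. At scores below 20, 9.93% of placed peaks had a same-strand protein-coding gene in the interval and 9.02% an opposite-strand one. At 1000 or more the shares were 43.5% (37 of 85 peaks, 95% exact binomial interval 32.8% to 54.7%) on the same strand and 8.24% (7 peaks, 3.38% to 16.2%) on the opposite strand. For miRNA genes they were 2.10% and 2.46% below 20, and 16.5% (14 peaks, 9.31% to 26.1%) on the same strand and 2.35% (2 peaks, 0.286% to 8.24%) on the opposite strand at 1000 or more. For long noncoding or antisense RNA genes the strands already differed below 20, at 28.9% on the same strand and 21.5% on the opposite strand, and the shares were 42.2% and 23.0% from 100 to below 1000 and 47.1% and 29.4% at 1000 or more. For transposable elements they were 30.7% (27.15% to 34.4%) and 25% (21.7% to 28.5%) from 100 to below 1000. At 1000 or more they were 29.4% and 28.2%. Both strands were scored on the same peaks, and the difference between them was not tested. The intervals were longer for the strong peaks, with a median of 25.5 kb between flanking gene starts at 1000 or more and 15.6 kb below 20. That length is the same for both strands of a peak, and its part in these shares was not tested. A same-strand gene of any kind was found for 67 of the 85 peaks (78.8%), and an opposite-strand gene for 33 (38.8%). No same-strand gene was found for the other 18.

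**Figure D4:**
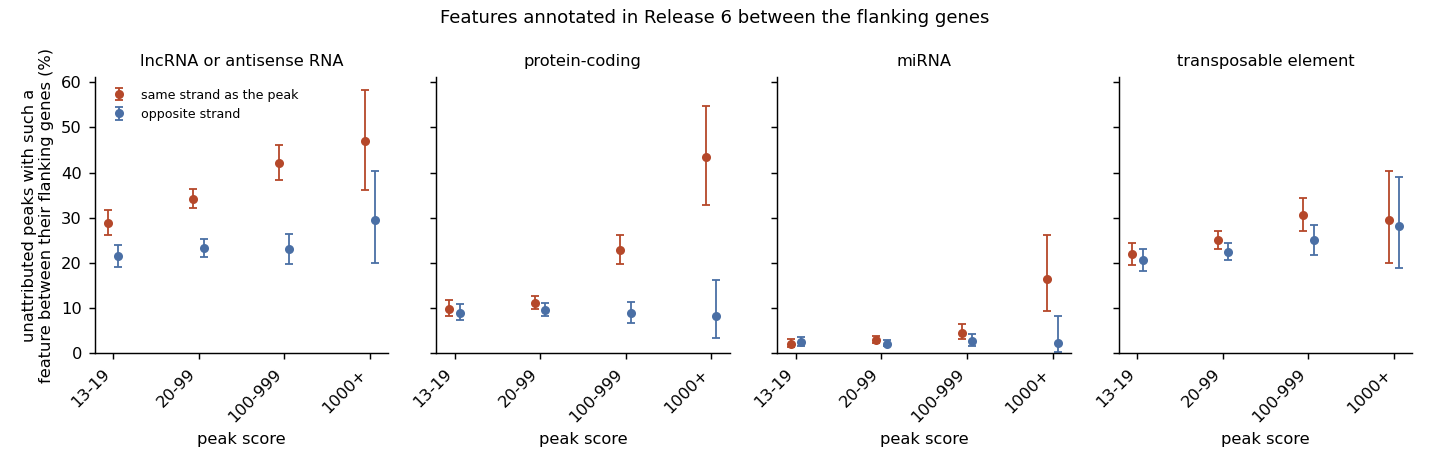
Share (%) of placed unattributed peaks with a feature of each kind annotated between their flanking genes on the same or on the opposite strand, by peak score, with 95% exact binomial intervals. Same-strand shares exceed opposite-strand shares most at scores of 1000 or more for protein-coding and miRNA genes, and both shares lie close together there for transposable elements.

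The 14 strong peaks beside same-strand miRNA genes lay in 12 intervals, and the miRNAs include well-studied ones. miRNAs are cut from longer capped primary transcripts whose starts can lie far from the hairpin, and the peaks described next lay on the strand of the hairpin in the interval that holds it. Whether a peak starts that transcript was not tested. These genes were chosen after their values were seen, by the score of at least 1000.

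The peak on 3L with a score of 12340 shares its interval with mir-ban, the bantam miRNA that promotes growth and blocks cell death, and with a long noncoding RNA gene. A second plus-strand peak of that interval scored 3196 (3L, 639686 to 639738). The peak on 2R of score 5577 lay in the interval of mir-8, a regulator of growth. Plus-strand peaks on 2R of score 3324 (5440210 to 5440475) and on 2L of score 3138 (20486522 to 20486657) lay in those of mir-14, which limits cell death and fat storage, and of mir-1, the muscle miRNA.

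A minus-strand peak on 2R of score 3125 (9224818 to 9224871) lay in the interval of mir-184, which acts in the female germ line. Plus-strand peaks lay in those of mir-9a, which limits sensory organ precursors (3L, 19555590 to 19555774, score 2667), and of mir-275 with mir-305 (2L, 7423752 to 7423943, score 2358). A minus-strand peak lay in that of mir-316 (3L, 21663119 to 21663164, score 2011). A plus-strand peak lay in that of mir-124, the neuronal miRNA, with mir-287 (2L, 17560798 to 17560841, score 1900). The remaining intervals held mir-4973, mir-276a with mir-276b, and the cluster of mir-317, mir-277 and mir-34. In all, 76 of the 260 miRNA genes that the annotation places on these chromosomes and the gene table lacks had a same-strand unattributed peak in their interval, from 124 peaks. For comparison, 88 peaks had an opposite-strand miRNA gene in their interval. Peaks were counted anywhere in the interval, whether before or past the hairpin. The let-7 complex was among the 76 through weaker peaks, the highest of which scored 521 (2L, 18455710 to 18455729).

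**Figure D5:**
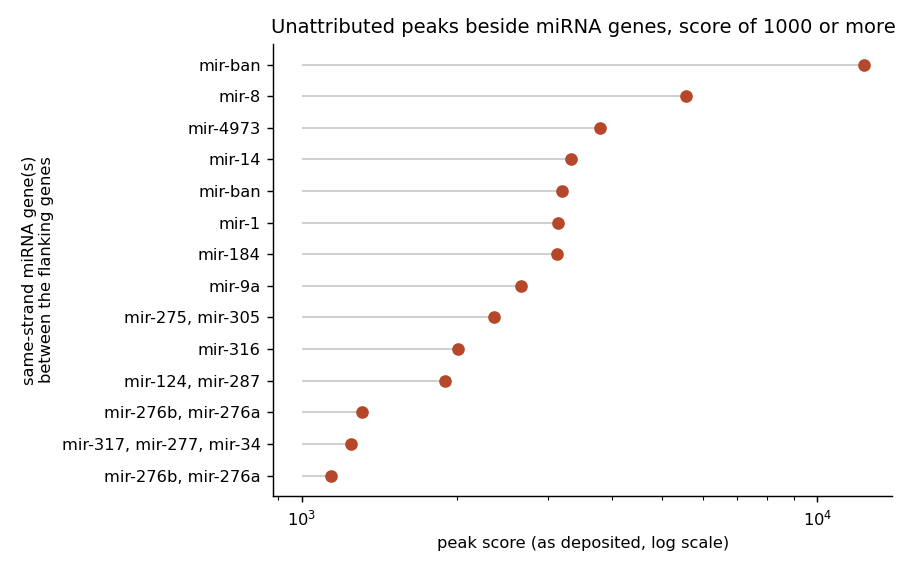
Scores, on a log scale, of the 14 unattributed peaks of at least 1000 that share an interval between flanking genes with a same-strand miRNA gene; each point is 1 peak, labelled with the miRNA genes of its interval. The peak in the interval of mir-ban is the highest at 12340.

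Intervals of other strong peaks held long noncoding RNA or protein-coding genes on the same strand, again chosen after their values were seen. The second highest unattributed peak, of score 22252, shared its interval with the noncoding RNA marge. A minus-strand peak on 3R (7081836 to 7081859, score 3368) shared one with cherub, a noncoding RNA known from neural stem cells. The peak between atl and puf shared its interval with MtnF, of the metallothionein family. A plus-strand peak on 2R (13558562 to 13558598, score 3619) shared one with IBIN, a small gene induced by infection. The peak near beta4GalT7 shared one with tnc, tenectin, and mah.

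Counts for transposable elements varied by family, and the families given here were picked after their counts were seen. INE-1, an old and very common element, lay in the interval of 455 unattributed peaks on the same strand and of 467 on the opposite strand. The LTR retrotransposon mdg1 lay in 51 on the same strand and 26 on the opposite strand, roo in 127 and 86, and blood in 26 and 12. Others leaned the other way, such as gypsy12 with 47 on the same strand and 55 on the opposite strand and FB with 30 and 38. No strand difference was tested by family. These counts describe order along the chromosome, and whether a peak lies inside an element was not tested.

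Genes with an unattributed peak beside a start had more signal than the table as a whole. A gene was counted if any of its start-site peaks had such a neighbour, while its RPM is that of the whole gene. The part of the number of start-site peaks per gene was not tested. The median over genes of the mean RPM (reads scaled to the library's total in genic peaks) in the 31 libraries other than pupae was 48.5 RPM for 886 genes with a divergent peak, 83.3 RPM for 958 genes with a facing one and 101 RPM for 188 with an overlapping one, against 14 RPM for all 12698 genes. Between adults, with 1 library per sex and so no test, 84 of the 886 genes with a divergent peak (9.48%; 95% exact binomial interval 7.63% to 11.6%) were at least 4-fold higher in males than in females on RPM + 1, where 18.1% of all genes were. The shares were 6.37% for facing and 6.38% for overlapping peaks. Lower in males by at least 4-fold were 9.26% of genes with a divergent peak, where 8.97% of all genes were. These genes have more signal than most, and the part of signal level in the lower male share was not tested.

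Over the embryo hours the genes beside unattributed peaks differed from the table in some windows and classes, each by a few percentage points. In the other windows and classes the 95% interval held the share of all genes. From 4 to 8 h and from 12 to 16 h this was so for every class. Genes reaching 2 RPM were sorted by the time of their highest embryo library. The share between 0 and 4 h was 32.8% (29.65% to 36.2%) with a divergent peak and 28.7% (25.8% to 31.7%) with a facing one. It was 30.3% (23.75% to 37.4%) with an overlapping peak, against 31.9% of all genes. Between 8 and 12 h it was 14.7% (95% exact binomial interval 12.3% to 17.3%) with a divergent peak and 12.9% (10.8% to 15.3%) with a facing one. With an overlapping peak it was 15.7% (10.8% to 21.7%), against 9.88% of all genes. Between 16 and 20 h it was 7.88% (6.13% to 9.93%) with a divergent and 8.51% (6.80% to 10.5%) with a facing peak. With an overlapping peak it was 9.73% (5.87% to 14.9%), against 10.4% of all genes. Between 20 and 24 h it was 12.0% (9.86% to 14.4%) with a divergent and 15.7% (13.45% to 18.2%) with a facing peak. With an overlapping peak it was 9.73% (5.87% to 14.9%), against 16.0% of all genes.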

How the data were processed

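Per the series' design text, the authors deposited all RAMPAGE peaks and, separately, those assigned to genes on dm3, each with a score of a definition and caller not given in the sources used here, and a table of RPM values per gene. The submitters' processing notes name STAR and Cufflinks without a role. The handling of duplicate and multiply matching reads, the second of which bears on peaks in repeats, was not stated. Reads were recovered from the RPM steps within 0.01 of a read, less surely for 16 to 17 h. The deposited transposon table was not used here.

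Unattributed peaks were selected, classed and measured in Python 3.11.15 with pandas 2.3.3; the classing was tested on simulated peaks. Overlap needed 1 bp, near meant within 500 bp and far over 5 kb. Intervals came from scipy 1.17.1. RPM folds used a pseudocount of 1. Of 12705 gene identifiers, 12112 had a symbol. Named peaks were the 10 of highest score, 3 per position class, and the 3 widest, farthest and richest loci; genes with only a CG or CR number were not named. The peaks and classes were chosen with earlier results of these data known. Sequences were not used here.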

Additional observations from a re-analysis of the deposited data

How the results depend on the processing

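Of 30 alternatives over 10 results, 8 stayed within the interval of the value (counts: within 1.5 times) and 22 moved. With a score at or above the full list's median required of both kinds of peak, 947 unattributed and 61.1% of genic peaks remained. These unattributed peaks had a median width of 69.0 bp and a median distance of 2197 bp. Of them 4.75% overlapped an opposite-strand genic peak, 12.2% were divergent and 11.5% facing. On the same strand 1.48% lay within 500 bp, and 34.1% lay over 5 kb away. The distance and these shares also reflect the removal of weaker genic neighbours, a part that was not separated. With at least 50% of the width required, 1.96% overlapped. Windows of 250 and 1000 bp gave 9.92% and 19.1% divergent, 7.91% and 26.8% facing, and 0.797% and 10.0% on the same strand. Without the condition on the nearest peak, added after the data were seen, 10.8%, 16.2% and 23.5% had an opposite-strand genic peak behind them within 250, 500 and 1000 bp. The order of the divergent and facing shares thus depends on the window, the score cut on both kinds of peak and that condition. Measured between 5′ edges 15.4% were divergent. Over 10 kb lay 12.5% and over 2 kb 39.3%. With a pseudocount of 0.1 RPM 12.2% of genes with a divergent peak were 4-fold higher in males, against 23.0% of all genes. The number of peaks was 6566 to 7421 under the other overlap rules and with heterochromatin kept. No paired analysis was possible because no stage had a replicate and no result comes from a test over samples. Peaks near the lowest score rest on few reads, so positions there are the least certain.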
